A study of Mus musculus with 54 samples.

Results

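The windows described here replicated early in mouse embryonic fibroblasts (MEFs) and late in both embryonic stem cells (ESCs) and neural precursor cells (NPCs). Replication timing was the authors' deposited log ratio of early to late S-phase signal in windows of 50 kb, so a positive value means early replication. The base of the logarithm is not given, and the values are read here as log2. The windows were selected on measured values: mean MEF timing had to exceed 1, and mean ESC and mean NPC timing both had to lie below -1. Of 43941 autosomal windows, 663 met this rule (1.51%). They add up to 33.15 Mb and, joined across gaps of at most 2 windows, form 124 regions.

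In S phase, chromosomes are copied in large blocks, each at a characteristic time. Early blocks tend to be gene-rich and open, and late blocks tend to lie at the nuclear lamina and hold silent or tissue-restricted genes. Blocks change their time during differentiation, often together with gene activity and with their place in the nucleus. Fibroblasts are connective tissue cells that make collagen-rich matrix and release growth factors and cytokines. Timing is not expression, and expression was not measured in these samples.

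The series holds 54 libraries in 27 profiles, each profile made from 1 early and 1 late S-phase library of BrdU-labelled cells. All cells were F1 hybrids, and each profile has 1 column for each parental allele. The ESCs selected on were 5 lines of 129 and Cas parentage grown feeder-free in 2i medium: Cas129, F123, F121-6 and F121-9 (2 profiles each) and F121 (1 profile). F121-6 and F121-9 also had 2 profiles each from growth on inactivated MEF feeders. The NPCs came from F121-9 (1 profile) and Cas129 (2 profiles) at day 11, so that the same 2 lines are in both groups. The MEFs came from 4 embryos of 129 and Cas parentage with 2 profiles each, and the labels read here give no embryonic age. V6.5 ESCs (1 profile, C57B6 and 129, male) and 1 extraembryonic endoderm (XEN) line (2 profiles, C57B6 and Cas, female) were not used by the rule. F123 is labelled male and the other 129/Cas ESC lines female, and embryos 1 and 2 are labelled female and embryos 3 and 4 male. In the labels the cross of Cas129 and of the embryos starts with Cas, and that of the other 4 ESC lines starts with 129. Lines or embryos were the units, and nothing states that repeat profiles came from separate cultures. F121, F121-6 and F121-9 share the stem of their names and may be related, yet each counts as 1 of the 5 ESC lines. The SD and p-values of ESCs treat them as independent.

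The X tracks went against the labels of 2 embryos. Embryo 1, labelled female, had a flat 129 X track like embryo 4, and embryo 3, labelled male, had structured X tracks on both alleles like embryo 2. The member count and the counts of allelic calls are therefore given with and without embryos 1 and 3. Region means, gene content and levels of single genes are given for all 4 embryos. The autosomal column means ran from -0.22 to -0.10 in MEF and XEN profiles and from -0.67 to -0.54 in ESC and NPC profiles. Any difference of MEFs or XEN cells from ESCs or NPCs crosses these 2 sets of columns, and how each set was scaled is not stated. After each column was centred on its autosomal median, 330 windows met the rule, 323 of them among the 663, and after quantile normalization 370 did, all among the 663. Without embryos 1 and 3 there were 673, of which 645 were among the 663. The read depth behind the values is unknown.

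Promoters of 4 member genes with roles in fibroblasts are shown because the promoters of member windows, as described further on, held fewer CG dinucleotides than promoters in general. They are the entries of highest MEF timing among the matrix and mesenchymal genes with a promoter in the RefSeq table. Each runs 5′ to 3′ from 250 bases before to 50 bases after an annotated start on GRCm38.p6, with every CG in capitals. Acta2, smooth muscle actin, lies on the minus strand at chr19:34255324-34255623. Prrx1, a homeobox transcription factor of limb and connective tissue mesenchyme, lies on the minus strand at chr1:163313601-163313900. Tnc encodes the matrix glycoprotein tenascin-C, with its promoter on the minus strand at chr4:64046966-64047265. Col3a1 encodes the chain of collagen III, with its promoter on the plus strand at chr1:45311288-45311587.
Acta2: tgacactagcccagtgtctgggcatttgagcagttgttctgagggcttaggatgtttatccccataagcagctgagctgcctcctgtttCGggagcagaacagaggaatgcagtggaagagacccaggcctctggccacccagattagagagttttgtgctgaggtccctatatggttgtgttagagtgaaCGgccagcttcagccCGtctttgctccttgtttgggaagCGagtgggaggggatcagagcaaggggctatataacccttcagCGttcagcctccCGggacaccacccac
Prrx1: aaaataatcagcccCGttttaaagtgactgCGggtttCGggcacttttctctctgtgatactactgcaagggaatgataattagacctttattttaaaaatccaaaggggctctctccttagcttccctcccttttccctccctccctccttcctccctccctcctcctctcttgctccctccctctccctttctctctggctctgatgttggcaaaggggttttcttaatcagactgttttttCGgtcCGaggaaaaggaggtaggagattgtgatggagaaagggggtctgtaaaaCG
Tnc: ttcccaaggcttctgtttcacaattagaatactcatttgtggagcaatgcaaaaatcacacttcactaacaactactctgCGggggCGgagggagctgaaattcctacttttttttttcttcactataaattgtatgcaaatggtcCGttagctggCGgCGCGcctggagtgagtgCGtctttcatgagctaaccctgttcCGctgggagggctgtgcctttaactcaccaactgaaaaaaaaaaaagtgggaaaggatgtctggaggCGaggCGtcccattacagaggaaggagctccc
Col3a1: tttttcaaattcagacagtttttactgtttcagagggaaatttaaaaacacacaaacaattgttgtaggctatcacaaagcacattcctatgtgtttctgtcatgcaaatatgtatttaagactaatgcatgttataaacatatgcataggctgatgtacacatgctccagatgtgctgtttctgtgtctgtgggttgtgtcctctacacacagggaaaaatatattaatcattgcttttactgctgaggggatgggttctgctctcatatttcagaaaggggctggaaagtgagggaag
The promoters of Acta2 and Prrx1 hold 6 CG each, that of Tnc holds 10 and that of Col3a1 holds 0.

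Over the member windows the timing that selected them was far apart between the groups. Median timing over members was 1.62 in MEFs, -2.28 in ESCs and -1.86 in NPCs, against -0.02, -0.66 and -0.68 over all autosomal windows. The medians of the 4 embryos ran from 1.58 to 1.64, those of the 5 ESC lines in 2i from -2.44 to -2.25, and those of the NPC lines were -1.80 and -1.97. The MEF values were tight, with a median SD over 4 embryos of 0.124 in members and 0.142 in all windows. Since these are the values of the rule, no test is given for them. In all 663 windows the lowest embryo was above the highest ESC or NPC line, which the thresholds of the rule make likely. In 420 windows every embryo and every line was past its threshold on its own, and 232 windows lay within 0.2 of a threshold. The last window inside had MEF timing of 1.001 and the first outside 0.999. The corresponding ESC values were -1.002 and -0.982, and the NPC values -1.0005 and -0.99997.

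**Figure D1:**
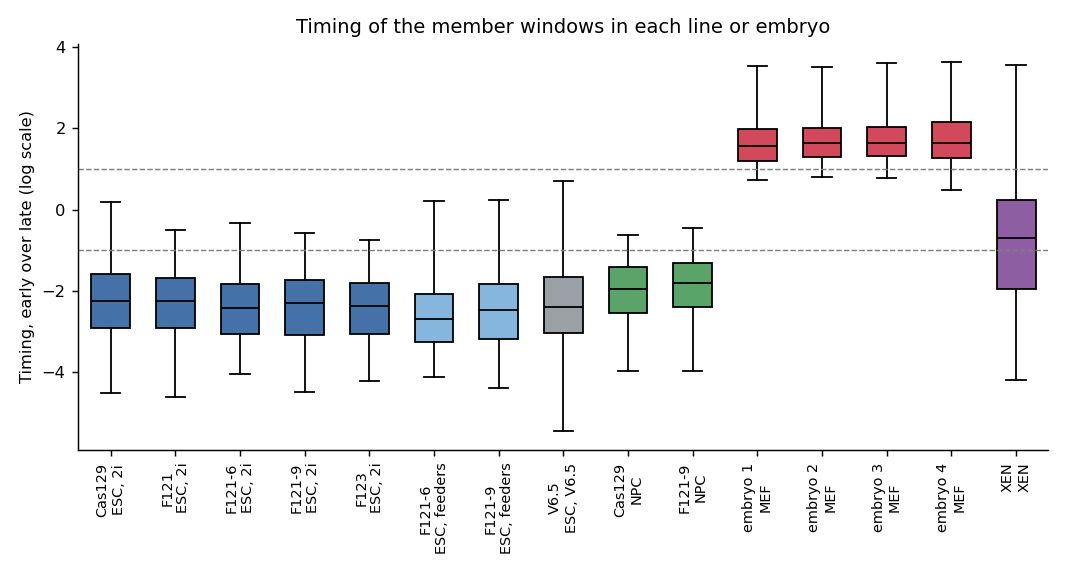
Timing (early over late, log scale) of the 663 member windows in each line or embryo. Boxes span the quartiles with the median as a line, whiskers reach the lowest and highest window, and dashed lines mark 1 and -1. The 4 MEF medians lie between 1.58 and 1.64, all ESC and NPC medians lie below -1, and the XEN box spans from -1.97 to 0.23.

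Profiles that the rule had not used gave the ESC side again. In ESCs on feeders, 633 of 663 members (95.5%) had mean timing below -1, against 47.3% of all windows. In both feeder lines 615 members were below -1, and by the mean none was above 1. These profiles come from F121-6 and F121-9, lines that the rule used in 2i. In V6.5 ESCs, a line with other parents, 585 members (88.2%) lay below -1, against 46.0% of all windows, and none above 1. Of windows late in ESCs, NPCs and MEFs alike, 97.6% lay below -1 on feeders and 95.3% in V6.5 ESCs. Late timing there is therefore not particular to the members. Of the MEF values that the rule did use, 566 members were above 1 on the 129 and on the Cas allele alike, and the lowest mean of a member on either allele was 0.468.

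The members were spread unevenly. Chromosome 1 held 112 (3.14% of its windows), chromosome 13 held 73 (3.32%), chromosome 15 held 68 (3.81%) and chromosome 3 held 65 (2.27%), while chromosomes 14 and 17 held 4 each. A region had a median of 4 member windows and at most 26. The 20 regions with 10 or more windows held 288 members (43.4%), and 25 regions were a single window. In 85 of the 124 regions no window within 500 kb on either side was above 1 in ESCs. Early ESC timing lay within 500 kb on 1 side of 32 regions and on both sides of 7. In MEFs, 77 regions had a window above 1 within 500 kb beyond 1 end, 31 beyond both ends and 16 beyond neither. Averaged over regions, MEF timing peaked at the centre at 1.59 and was 0.73 and 0.60 at 500 kb to either side. ESC timing was low there, at -2.31 at the centre and -1.47 and -1.40 at 500 kb. The rule makes a MEF peak and an ESC trough at the centre likely. XEN timing was -0.60 at the centre and -0.52 and -0.40 at 500 kb.

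**Figure D2:**
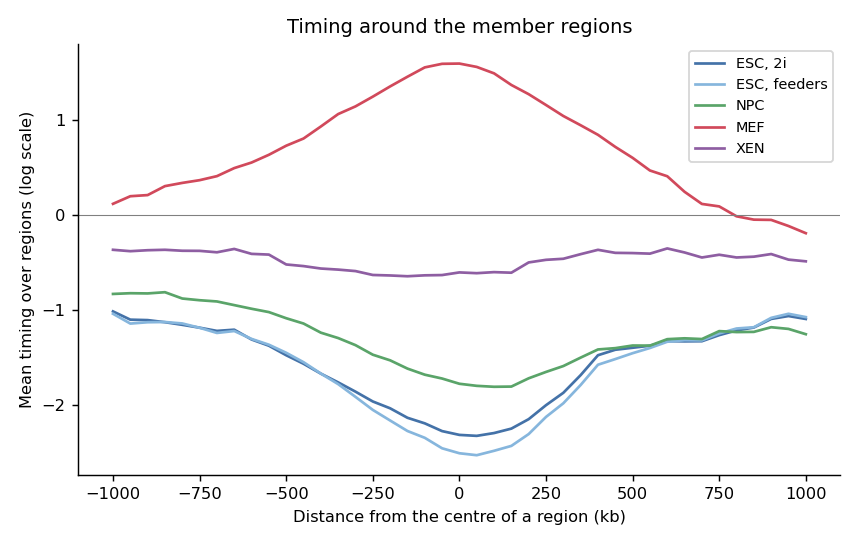
Mean timing (log scale) by distance in kb from the centre of the 124 member regions, 1 line per cell type. MEF timing peaks at 1.59 and ESC timing in 2i falls to -2.31 at the centre, while XEN timing is nearly level. The rule makes the MEF peak and the ESC trough likely.

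Regions are ranked here by their number of member windows, and the first held a matrix gene. It ran on chromosome 4 from 63750001 to 65050000 with 26 member windows around Tnc and Tnfsf8, the latter encoding the CD30 ligand. Its mean timing was 1.85, 1.87, 1.90 and 1.98 in embryos 1 to 4. The ESC lines in 2i were late throughout, at -3.62 in F121, -3.52 in F121-6, -3.45 in F121-9, -3.49 in F123 and -3.16 in Cas129, and the NPC lines were at -2.34 and -2.39. XEN cells were late as well, at -2.86, so no group but the MEFs was early here.

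Next by member windows was a collagen locus, on chromosome 1 from 45000001 to 46050000 with 21 member windows. It holds Col3a1 and Col5a2, chains of fibrillar collagens III and V, with Wdr75 and the iron exporter Slc40a1 (ferroportin). The embryos were at 2.14, 2.25, 2.17 and 2.18. The ESC lines ran from -2.62 in F121 to -1.94 in F123, the NPC lines were at -2.71 and -2.48, and XEN cells were at -1.99. The embryos lay close together, at 2.19 ± 0.05 (SD, n = 4 embryos), and far from the ESC mean of -2.21 ± 0.30 (SD, n = 5 lines).

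Further matrix loci were shorter. Col12a1, a collagen that sits on the surface of fibrils, lay at the edge of a region on chromosome 9 from 78950001 to 79650000 with 14 member windows. It was the least early of the 15 longest regions, at 1.25, 1.41, 1.44 and 1.197 in the embryos, with an ESC mean of -2.61 ± 0.53 (SD, n = 5 lines). The region on chromosome 16 from 85700001 to 86600000 holds Adamts1 and Adamts5, secreted proteases that cleave matrix proteoglycans. Its 18 windows were at 1.58 ± 0.05 in MEFs (SD, n = 4 embryos) and at -3.69 ± 0.13 in ESCs (SD, n = 5 lines), the latest ESC mean of the 15 regions.

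The highest MEF means of the 15 regions belonged to Prrx1 and Acta2. The Prrx1 region, on chromosome 1 from 162900001 to 163700000 with the golgin gene Gorab and with Mroh9, was at 2.40, 2.54, 2.44 and 2.84 in the embryos. Its ESC lines ran from -2.18 to -1.93, and its NPC lines were at -1.48 (F121-9) and -1.78 (Cas129). The Acta2 region, on chromosome 19 from 34000001 to 34650000, also holds the death receptor gene Fas and the deubiquitinase gene Stambpl1. It was at 2.57, 2.50, 2.67 and 2.48 in the embryos, from -2.36 to -1.65 in ESCs and at -1.85 and -1.79 in NPCs. XEN cells were intermediate at Acta2, at 0.06.

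Several long regions held signalling genes. On chromosome 5 from 90550001 to 91400000 lies the chemokine cluster with Pf4, Ppbp, Cxcl1, Cxcl2, Cxcl3 and Cxcl5, next to Ereg and Areg, ligands of the EGF receptor. Its 17 member windows were at 2.36, 2.35, 2.38 and 2.48 in the embryos, from -3.06 to -2.60 in ESCs and at -2.37 and -2.34 in NPCs. The interleukin receptor genes Il1r1, Il1rl2 and Il1rl1, on chromosome 1 from 40250001 to 40800000, were at 2.10 ± 0.04 in MEFs and -2.62 ± 0.18 in ESCs. Ptgs2, the inducible cyclooxygenase of prostaglandin synthesis, shares a region on chromosome 1 from 149800001 to 150350000 with Pla2g4a, the phospholipase that supplies its substrate. That region was at 2.05 ± 0.18 in MEFs, -2.21 ± 0.50 in ESCs and -2.94 ± 0.06 (SD, n = 2 lines) in NPCs. Dkk2, which encodes a secreted modulator of Wnt signalling, was the only protein-coding gene of a region on chromosome 3 from 131650001 to 132200000. That region was at 1.87 ± 0.08 in MEFs and -2.84 ± 0.31 in ESCs.

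The remaining 5 of the 15 were more mixed. Dusp10, a phosphatase of MAP kinases (chromosome 1, 183650001 to 184550000), was at 1.25, 1.35, 1.42 and 2.01 in the embryos, the widest spread of the 15 regions. Plk2, a polo-like kinase gene (chromosome 13, 110300001 to 111200000), was at 1.73 ± 0.10 in MEFs and -2.43 ± 0.41 in ESCs, and XEN cells reached 1.02. Camk2d, a subunit of a calmodulin-dependent kinase (chromosome 3, 126200001 to 126800000), was at 1.68 ± 0.09 in MEFs and -2.30 ± 0.21 in ESCs. Sugct, an enzyme of glutarate metabolism (chromosome 13, 16350001 to 16950000), was at 1.59 ± 0.22 in MEFs and -2.93 ± 0.23 in ESCs. A region on chromosome 15 from 62500001 to 63650000 overlapped no protein-coding gene over its 19 member windows, and was at 1.49, 1.48, 1.63 and 1.72 in the embryos and -1.93 ± 0.19 in ESCs. In each of the 15 regions the embryos lay above every ESC and NPC line, which the rule makes likely in any member.

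**Figure D3:**
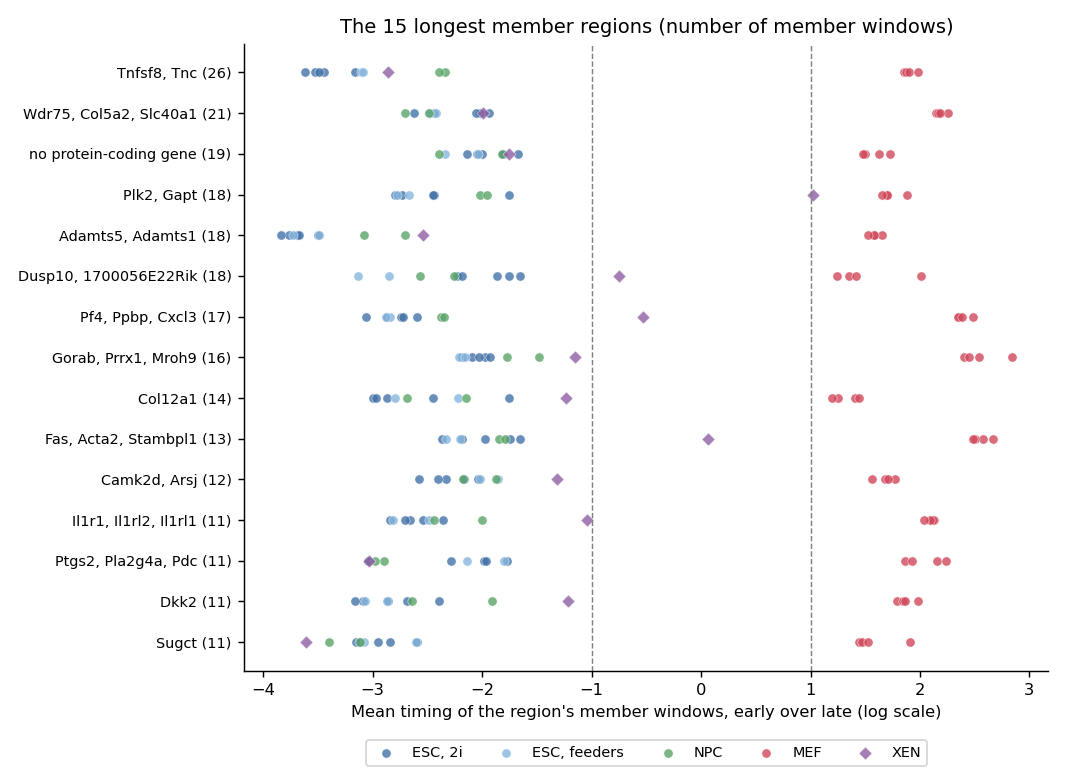
Mean timing (log scale) of the member windows of the 15 longest regions, with 1 point per line or embryo and the number of member windows in parentheses. All MEF points lie above 1 and all ESC and NPC points below -1, while XEN cells run from -3.60 at Sugct to 1.02 at Plk2.

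Member windows were poor in protein-coding genes. The start of 170 protein-coding genes lay in a member, or 5.13 per Mb, against 8.31 per Mb over all windows. Windows late in all 3 cell types held 2.55 per Mb, and windows early in all 3 held 19.0 per Mb. Of the 124 regions, 57 held no such start in a member window and 40 overlapped no protein-coding gene. The starts of 152 lncRNA genes also lay in members, of 11460 in all windows. Below, "without genes" and "gene-free" mean without protein-coding genes only. For 39 of the 170 genes the tables give no strand, and their lower coordinate stood for the start. Both ends of 28 of these 39 lie in members. Among promoters in the RefSeq table, the 131 of member windows had a median of 7 CG and 50.7% GC. The median was 15 CG and 57.3% GC over all 14557 promoters, 19 CG in windows early in all 3 cell types and 2 CG in windows late in all 3. At least 10 CG were found in 43.5% of the member promoters and in 60.7% of all. The letters TATAAA occurred on either strand in 18.3% of member promoters and 12.8% of all. The share was 8.03% in windows early in all 3 cell types and 33.5% in windows late in all 3. Windows early in ESCs only, by the same thresholds, had 90 promoters with a median of 7.5 CG and 50.2% GC. Of these, 35.6% held at least 10 CG and 11.1% held TATAAA. A low CG count is therefore not particular to the members. These are descriptions of fixed stretches of sequence, and no factor was measured on them.

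Genes of matrix and of secreted signals were members more often than the share over all genes. Of all 18263 protein-coding genes measured, 170 (0.931%) were members. Of 47 measured fibroblast matrix genes 7 were members (14.9%): Col3a1, Col5a2, Col12a1, Postn, Tnc, Lox and Acta2. Of 61 measured genes for secreted signals 11 were members (18.03%): Tslp, Cxcl1, Cxcl2, Cxcl5, Cxcl12, Ereg, Areg, Inhba, Dkk2, Sema3c and Nrg1. Col12a1 and Nrg1 count by their lower coordinate only, since no strand is given, and their start may lie outside the members. These lists were drawn up with earlier results of these data known, and several of their members are neighbours, so the shares are a description. Chosen without embryos 1 and 3, the members held 7 and 11 genes of these lists too. Median centring raises ESC and NPC values, whose medians over all windows were -0.66 and -0.68, and several of these genes then miss the rule. They are Col3a1 and Col5a2, at -1.52 and -1.54 in ESCs, and in NPCs Postn (-1.61), Cxcl12 (-1.38), Sema3c (-1.15) and Nrg1 (-1.51). Most genes of both lists were not members. The matrix list had 16 genes early in all 3 cell types, and the signal list had 14. The median MEF timing was 2.28 over the matrix list and 1.61 over the signal list, against 2.15 over all genes, and the median ESC timing was -0.22 and -1.203 against 2.06.

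The other lists held few members. Of 49 measured mesenchymal transcription factors only Prrx1 was a member, of 21 adhesion and integrin genes only Itga2, of 9 blood genes only Cd34, and of 18 endoderm genes only Dab2. None was a member among 14 muscle, 15 cartilage and bone, 11 endothelial, 10 epithelial, 6 adipocyte, 15 neural and 17 pluripotency genes. Prrx1, Itga2, Cd34 and Dab2 all miss the rule after median centring. On the deposited scale Prrx1 was at -1.57, Itga2 at -1.53 and Dab2 at -1.198 in NPCs, and Cd34 at -1.39 in ESCs. Medians over the mesenchymal transcription factors were 1.23 in MEFs, 0.44 in ESCs and 1.22 in NPCs.

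Among the 7 matrix genes in members, Acta2 had the highest MEF timing. Its window was at 2.98, 2.74, 3.21 and 2.81 in embryos 1 to 4, from -2.54 to -1.54 in the ESC lines and at -1.77 and -1.70 in the NPC lines. Lox, the enzyme that crosslinks collagen and elastin, was at 2.36, 2.61, 2.75 and 2.90 in the embryos and from -2.20 to -1.71 in ESCs. At both genes every embryo was early and every ESC line late, a separation that the rule makes likely in any member. Tnc was at 2.25 ± 0.06, Col5a2 at 2.18 ± 0.07 and Col3a1 at 2.06 ± 0.10 in MEFs (SD, n = 4 embryos). Postn, which encodes the matrix protein periostin, was at 1.44, 1.53, 1.44 and 1.02 in the embryos, and Col12a1 at 1.05, 1.30, 1.44 and 1.11. These were close to the threshold in 1 or more embryos. Postn was later in ESCs (-2.80 ± 0.17) than in NPCs, where the lines were at -1.92 and -1.30.

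The chemokine genes Cxcl5, Cxcl1 and Cxcl2 had the highest MEF timing of the 11 signal genes in members. Cxcl5, a neutrophil attractant, was at 2.86, 2.76, 2.84 and 3.26 in the embryos and from -3.06 to -2.10 in ESCs. Cxcl1 and Cxcl2, of the same family, were at 2.81 ± 0.09 and 2.71 ± 0.06 in MEFs, and the growth factor genes Ereg and Areg at 2.41 ± 0.10 and 2.29 ± 0.08. All 5 belong to 1 region and are not independent of each other. Cxcl12, a chemokine of stromal cells that retains blood stem cells, was at 1.62, 1.66, 1.60 and 2.01 in the embryos and at -2.43 ± 0.37 in ESCs. Tslp, an epithelial and stromal cytokine, was at 1.61 ± 0.06 and Dkk2 at 1.61 ± 0.09.

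Lower in MEFs were Inhba, which encodes a subunit of activin A, at 1.44 ± 0.16, and Sema3c, a secreted guidance cue, at 1.43 ± 0.12. Nrg1, a ligand of ERBB receptors, was at 1.23, 1.13, 1.13 and 0.976, below the threshold in embryo 4. Sema3c was the latest of these 11 genes in ESCs (-3.94 ± 0.21), but its NPC lines were close to the threshold at -1.17 and -1.13. For Nrg1 and Col12a1 no strand was given and their upper ends lie outside the members. Prrx1 was at 2.72 ± 0.21, Itga2, an integrin that binds collagen, at 1.77 ± 0.10, and Cd34, a sialomucin of blood progenitors and stromal cells, at 1.27 ± 0.09. Dab2, an endocytic adaptor used here as an endoderm gene, was at 1.79 ± 0.08.

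XEN cells shared part of the early timing, so "MEFs only" holds against ESCs and NPCs but not against every cell type measured. In XEN cells 102 members (15.4%) were above 1 (100 of the 673 chosen without embryos 1 and 3), 285 (43.0%) were below -1, and the median was -0.71. Over all autosomal windows 38.0% were above 1 and 38.8% below -1 in XEN cells, with a median of -0.01. Members were thus early in XEN cells less often than windows in general. The 2 XEN profiles were alike: 103 and 101 members were above 1 in the first and second, 98 of them in both. By region, 26 of 124 had mean XEN timing above 1, 45 below -1 and 53 in between. Among all windows late in ESCs and NPCs, XEN timing above 1 was found in 15.4% of those early in MEFs, in 6.88% of 2704 with MEF timing from -1 to 1, and in 0.835% of 14017 with MEF timing below -1. Windows of 1 region are not independent, so no test is given for these shares. After median centring 24 of the 330 windows meeting the rule were above 1 in XEN cells, and after quantile normalization 39 of 370.

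**Figure D4:**
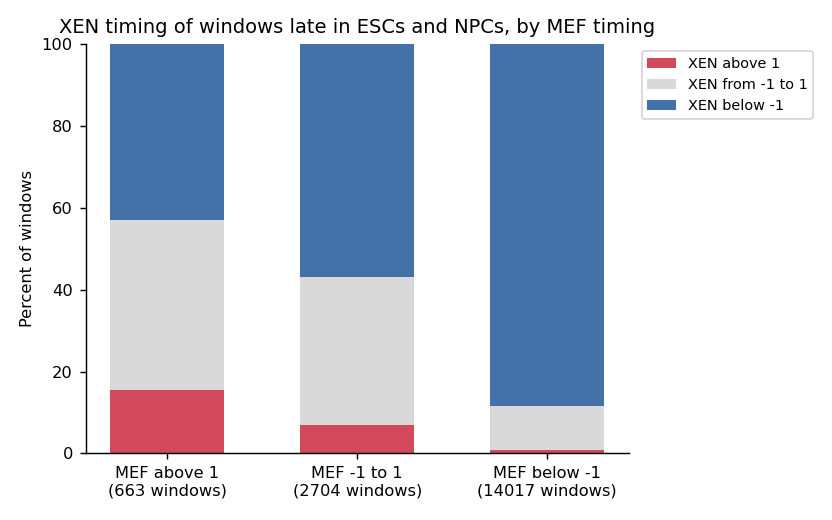
Percent of windows in 3 classes of XEN timing, for windows late in ESCs and NPCs, split by MEF timing. The share above 1 in XEN cells is 15.4% where MEFs are early, 6.88% where they are intermediate and 0.835% where they are late.

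XEN timing was also tested against that of ESCs on feeders, which the rule had not used, with limma (Benjamini-Hochberg adjusted p below 0.05 over all autosomal windows and a size of 1 or more). XEN cells are 1 line here, assumed to vary like the other groups. Of the members 425 (64.1%) were called earlier in XEN cells, where 26.5% of all windows were, and 23 (3.47%) later, where 10.6% of all windows were. The median difference was 1.78 over members and 0.38 over all windows. The choice of late ESC windows in the same lines favours this direction, and the share called earlier was 51.8% in windows late in ESCs and NPCs with MEF timing from -1 to 1, and 20.3% where MEFs were below -1. On the deposited scale 11647 of all 43941 windows were called earlier and 4648 later. Median centring gave 334 earlier and 72 later members, where 6594 of all windows were earlier and 10070 later. The median over all windows was then -0.30. Quantile normalization gave 346 and 46 members, where 7733 of all windows were earlier and 7702 later, with a median of -0.03.

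The 5 regions earliest in XEN cells included those of Thbd, Itga2 and Dab2. On chromosome 2 from 148350001 to 148750000 lie Thbd, the anticoagulant receptor thrombomodulin, and Cd93, a receptor of endothelial and myeloid cells. That region was at 2.93 and 2.96 in the XEN profiles and at 1.59, 1.57, 1.83 and 2.16 in the embryos. Itga2 and Itga1, collagen-binding integrins on chromosome 13 from 114750001 to 115000000, were at 2.79 and 3.03 in XEN cells and 1.94 ± 0.13 in MEFs. Dab2, on chromosome 15 from 6150001 to 6450000, was at 2.40 and 2.75 in XEN cells and 1.84 ± 0.05 in MEFs. Cavin2, a coat protein of caveolae (chromosome 1, 51200001 to 51350000), was at 1.97 and 2.02 in XEN cells and 1.19 ± 0.19 in MEFs. A region without protein-coding genes on chromosome 3 from 79950001 to 80300000 was at 1.88 and 2.13 in XEN cells and 2.15 ± 0.12 in MEFs.

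In the 5 latest regions XEN cells were at -3.68 to -3.03. Zfpm2, a cofactor of GATA factors (chromosome 15, 40250001 to 40700000), was at -3.99 and -3.37 in XEN cells against 1.28 ± 0.10 in MEFs. Inhba (chromosome 13, 15900001 to 16200000) was at -3.53 and -3.62 in XEN cells and 1.39 ± 0.16 in MEFs, and Sugct nearby was at -3.66 and -3.55. Anxa1, an annexin, and Aldh1a1, an enzyme of retinoic acid synthesis (chromosome 19, 20300001 to 20550000), were at -3.14 and -3.29 in XEN cells and 1.42 ± 0.08 in MEFs. The Ptgs2 region was at -3.14 and -2.92. Of the list genes in members, Itga2 (2.93), Dab2 (2.77) and Nrg1 (2.44) had XEN timing above 1, while Col3a1 (-3.65), Inhba (-3.58), Col5a2 (-3.17), Sema3c (-2.55) and Postn (-2.31) were among the latest.

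The rule used the mean of both alleles, which leaves their difference free to be tested. Differences are 129 minus Cas, so they are positive where the 129 allele came first. Windows were called with limma on the 11 lines and embryos if the adjusted p was below 0.05 and the size reached 0.5. In MEFs 49 members (7.39%) had an earlier 129 allele, against 5.36% of all windows, and 24 (3.62%) an earlier Cas allele, against 7.21%. They lay in 13 and 9 member regions. Windows of 1 region are not independent, so these shares and the allelic shares below are a description. All 4 embryos have Cas named first in the cross, so strain and parent of origin cannot be told apart in MEFs. Without embryos 1 and 3 only 15 members were called, 10 of them in favour of 129 and 5 in favour of Cas. With no minimum size there were 141. For these and the allelic refits below, no share over all windows is given, so their counts do not tell members from other windows. A difference of at least 0.5 in either direction was found in 12.5% to 16.3% of members per embryo, against 19.5% to 20.8% of all windows.

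In MEFs the 129 allele led most on chromosome 14 from 73650001 to 73700000, a window with no protein-coding gene. Its allelic difference was 1.09, 1.04, 1.12 and 1.202 in the embryos, and in the ESC lines it ran from 0.20 to 0.94 (adjusted p = 4.99e-05 in MEFs, limma). On chromosome 15 from 3600001 to 3850000, also without protein-coding genes, the embryos were at 1.11, 1.05, 0.887 and 1.24 while the ESC mean was -0.39 ± 0.29 (SD, n = 5 lines). At Inhba (chromosome 13, 15900001 to 16150000) the embryos were at 0.810, 0.767, 0.644 and 0.650, with an adjusted p of 0.000334 (limma) at the window of largest difference. Tmem26 (0.72 ± 0.07, chromosome 10, 68650001 to 69050000) and the Tcaf2, Tcaf3 and Olfr455 region (0.69 ± 0.19, chromosome 6, 42200001 to 42650000) also had an earlier 129 allele, the latter in both NPC lines too, at 0.64 and 0.62. In these 5 regions the sign was the same in all 4 embryos.

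The Cas allele led most on chromosome 13 from 85350001 to 85400000, with no protein-coding gene, at -0.988, -1.03, -1.25 and -1.46 in the embryos. The Cas allele led in that window in ESCs as well, at -1.97 ± 0.63 (SD, n = 5 lines). In the region without genes on chromosome 15, the Cas allele led over 9 windows from 63200001 to 63650000, at -0.64 ± 0.07 in MEFs and -0.10 ± 0.13 in ESCs. Tlr3, a receptor for double-stranded RNA, with Sorbs2 and Fam149a (chromosome 8, 45300001 to 45600000), was at -0.68 ± 0.04 in MEFs and 0.70 ± 0.29 in ESCs. Serpinb9, Serpinb6b and Serpinb1c, genes of a protease inhibitor family (chromosome 13, 32900001 to 33100000), were at -0.68 ± 0.04 in MEFs. These 4 regions and the Tcaf2, Tcaf3 and Olfr455 region kept their direction but were no longer called without embryos 1 and 3, with limma adjusted p from 0.0530 to 0.0909. Mrc1, described further on, was the fifth region with an earlier Cas allele and was still called (adjusted p = 0.0248, limma).

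In ESCs the members were called more often in favour of the 129 allele, 142 (21.4%) against 13.8% of all windows, and 79 (11.9%) in favour of Cas against 12.6%. These windows lay in 41 and 25 member regions. F123 had a median allelic difference of 0.24 over members and 0.04 over all windows, and the other 4 lines had medians of 0.02 to 0.11 over members. The autosomal means of F123 were -0.67 and -0.66 in its Cas columns and -0.60 in both 129 columns. In embryos 1 and 4 the offset was the other way, at -0.22 to -0.19 for 129 and -0.15 to -0.14 for Cas. Whether these offsets bear on the allelic calls was not tested. By the mean over a region, the 129 allele led most at Ccl20, a chemokine gene (chromosome 1, 83100001 to 83150000), with 2.00 in Cas129, 1.78 in F121, 1.94 in F121-6, 1.47 in F121-9 and 2.17 in F123. Its embryos were between -0.19 and -0.02, and the difference of 1.87 ± 0.10 in ESCs (SE) had an adjusted p of 3.56e-08 (limma). St3gal1, a sialyltransferase gene (chromosome 15, 67150001 to 67450000), was at 1.69 ± 0.37 in ESCs (SD, n = 5 lines) and between -0.08 and 0.19 in the embryos. The collagen IV genes Col4a3 and Col4a4 with Rhbdd1 (chromosome 1, 82400001 to 82600000) were at 1.43 ± 0.35 in ESCs. Rcan2, Enpp5 and Enpp4 (chromosome 17, 44000001 to 44200000) were at 1.40 ± 0.50, and Adam12, a metalloprotease gene, with D7Ertd443e (chromosome 7, 134050001 to 134450000) was at 1.25 ± 0.24.

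Besides the chromosome 13 window, the Cas allele was earlier in ESCs on chromosome 14 from 119900001 to 120000000 (-1.92 ± 0.52) and on chromosome 7 from 125250001 to 125300000 (-1.62 ± 0.36), both without genes. It was also earlier at Sqor, a mitochondrial enzyme of sulfide oxidation (chromosome 2, 122750001 to 122800000, -1.82 ± 0.70), and at Slc2a13, a transporter of myo-inositol (chromosome 15, 91550001 to 91650000, -1.67 ± 0.83). At Slc2a13 the lines ran from -2.72 in F121 to -0.49 in F123. In the 10 ESC regions named, the sign of the mean was that of all 5 lines.

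NPC calls in favour of 129 lay in 6 member regions and those in favour of Cas in 12, with 10 windows at Pabpc2. In NPCs 13 members (1.96%) had an earlier 129 allele, against 2.16% of all windows, and 37 (5.58%) an earlier Cas allele, against 1.87%. With 2 lines this count is fragile: it was 7 without Cas129, 14 without F121-9 and 20 without embryos 1 and 3, which enter through the shared spread. Without those embryos Zpld1 and the 5 regions with an earlier 129 allele, all named below, were not called. At Pabpc2, a gene of the poly(A)-binding protein family (chromosome 18, 39550001 to 40050000), the lines were at -1.17 (F121-9) and -1.22 (Cas129), while the ESC mean was -0.45 ± 0.11. At Ankrd22, Lipm and Lipn in the Acta2 region (chromosome 19, 34050001 to 34250000) they were at -1.42 and -0.98. There the Cas allele was earlier in every ESC line as well, from -1.94 to -0.79, and the embryos were between -0.63 and -0.19. Another 3 regions had an earlier Cas allele: a gene-free one on chromosome 11 from 44000001 (-0.90 and -1.28), Zpld1 on chromosome 16 from 55300001 (-0.48 and -1.27) and a window on chromosome 16 from 58150001 (-0.98 and -0.94). Dpysl3, a protein of growing axons (chromosome 18, 43350001 to 43400000), was earlier on the 129 allele at 0.60 and 0.70, as it was in ESCs (1.23 ± 0.27) and in MEFs (0.45 ± 0.06). The Tcaf2, Tcaf3 and Olfr455 region (chromosome 6, 42400001 to 42650000) was at 0.76 and 0.77, Adam12 was at 0.58 and 0.66, and the sign was the same at gene-free regions of chromosome 16 (25450001 to 25600000, 0.57 and 0.93) and chromosome 8 (128850001 to 128900000, 0.85 and 0.39).

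The allelic difference itself changed between MEFs and ESCs in 250 members. It was higher in MEFs in 113 (17.0%), against 12.4% of all windows, and lower in 137 (20.7%), against 15.2%. These windows lay in 36 and 42 member regions. Without embryos 1 and 3, 146 members were called. All embryos but, of the ESC lines, only Cas129 have Cas named first in the cross. Cell type and parent of origin are therefore partly mixed in this comparison. At Mrc1, the macrophage mannose receptor (chromosome 2, 14250001 to 14300000), the difference turned its direction. The embryos were at -0.884, -0.768, -0.845 and -0.795, and the 5 ESC lines at 0.712, 0.966, 0.882, 0.980 and 1.10, a change of -1.75 ± 0.13 (SE, limma adjusted p = 2.07e-06). The NPC lines were at 0.34 and 0.71, on the side of the ESCs. A window without genes on chromosome 8 from 103900001 turned in the same way, from 0.91 ± 0.31 in ESCs to -0.53 ± 0.13 in MEFs, with NPC lines at -0.43 and -0.09.

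Elsewhere a difference between alleles in ESCs was smaller in MEFs. They include Ccl20 (-1.96 ± 0.15, SE), St3gal1, Col4a3 and Col4a4, all earlier on the 129 allele in ESCs, and Sqor, Slc2a13 and the gene-free windows on chromosomes 7 and 14, earlier on the Cas allele in ESCs. On chromosome 7 the 4 embryos had a small difference the other way, at 0.414, 0.241, 0.199 and 0.218. The gene-free region on chromosome 15 from 3600001 gained an earlier 129 allele in MEFs, with a change of 1.72 ± 0.22 (SE, limma adjusted p = 7.34e-05) at its window of largest difference.

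**Figure D5:**
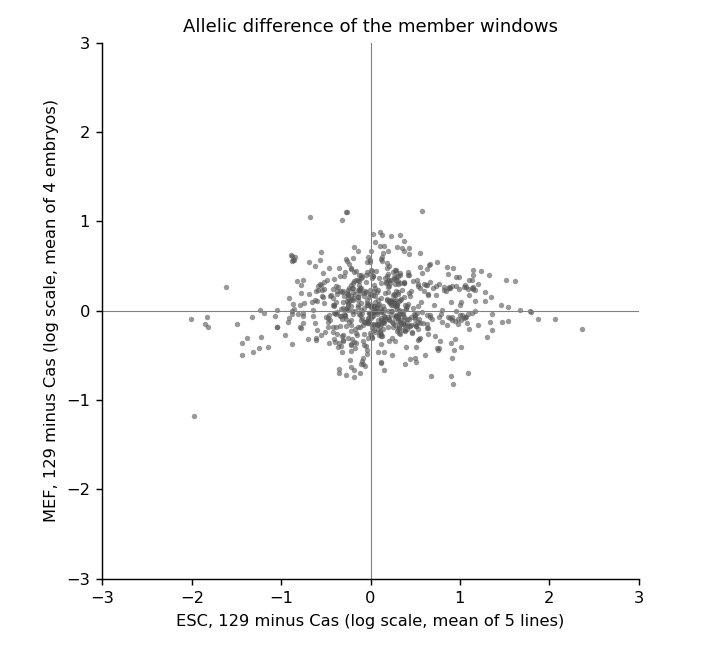
Allelic difference (129 minus Cas, log scale) of the 663 member windows, with the mean of 5 ESC lines on the x axis and the mean of 4 MEF embryos on the y axis. ESC values reach further from 0 than MEF values, and 250 members were called for a change between them.

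Of 855 miRNA hairpins in autosomal windows 3 lay in members. Their mature sequences are shown with the seed (bases 2 to 8) in capitals, because mmu-miR-511-3p lies in the Mrc1 window whose allelic difference turned. They come from RefSeq on GRCm38.p6, and none shares its seed with another. The first is at chr2:14261051-14261072 (plus strand), the second at chr12:35194849-35194869 (minus strand) and the third at chr16:55494770-55494788 (plus strand).
mmu-miR-511-3p: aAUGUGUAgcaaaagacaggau
mmu-miR-680: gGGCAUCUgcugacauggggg
mmu-miR-5118: aAGGUUAGgccagccuggu
Mean MEF timing of their windows was 1.11, 1.03 and 2.56, and mean ESC timing -1.32, -3.15 and -2.06, in that order.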

How the data were processed

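The authors deposited 1 table of log ratios, read here as log2, of early over late S-phase signal for each allele in 50 kb windows on mm10, per the file headers. The base of the logarithm, the scaling, any smoothing and the assignment of reads to alleles are not given in the sources used here. The submitters' processing notes name Bowtie2, SAMtools and bedtools. Gene positions and sequences came from RefSeq tables of GRCm38.p6, the same build.

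Timing was the mean and allelic difference the difference (129 minus Cas) of the 2 columns of a profile, averaged over the profiles of a line or embryo. The members and gene lists were chosen with earlier results of these data known. Each autosomal window was tested in R 4.3.3 with limma 3.58.1 (Benjamini-Hochberg over all windows, two-sided), with all groups in 1 fit that shares the spread and lines in both ESCs and NPCs not paired. The code was tested on simulated data. Each allelic p measures the spread between lines or embryos. Named were the 15 regions with most members, each list gene with its start in a member, up to 5 called regions per direction and allelic result, and the 5 earliest and 5 latest XEN regions of at least 3 windows. Up to 3 genes per region were named, and other genes of these regions were named after their values were seen. Alternatives changed the scaling, the thresholds, the lines included, the minimum size, the variance model and the unit.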

Additional observations from a re-analysis of the deposited data

Results flagged for a closer look

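Within groups of 4 embryos or 5 ESC lines, 120 sets of values were looked at for a sample that stood apart from the others (Dixon's 95% limit), and 3 were found, where chance gives about 1 in 20. Embryo 1 had a median timing over members of 1.58, while the other 3 embryos lay between 1.63 and 1.64. Embryo 4 was at 2.01 at Cxcl12, while the others lay between 1.60 and 1.66. In the allelic difference of the St3gal1 region on chromosome 15, embryo 4 was at 0.189 and the others between -0.08 and -0.04.

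The allelic difference differed between MEFs and ESCs by limma's test of the difference at 10 regions (means over each region's windows). It was lower in MEFs at Ccl20 (-1.96), Mrc1 (-1.75), St3gal1 (-1.69), the Col4a3, Col4a4 and Rhbdd1 region (-1.46) and the gene-free window on chromosome 8 (-1.44). It was higher in MEFs at the gene-free regions on chromosome 7 (1.88), chromosome 14 (1.84) and chromosome 15 from 3600001 (1.46), at Sqor (1.64) and at Slc2a13 (1.53).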

How the results depend on the processing

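The number of windows meeting the rule was 330 after median centring, 370 after quantile normalization and 431 at thresholds of 1.2 and -1.2, against 663, and ran from 652 to 685 when 1 line or embryo was left out. Windows early in ESCs alone numbered 230, 289 and 284 under the deposited scale, median centring and quantile normalization, and windows early in MEFs alone 663, 330 and 370. Members called between alleles in MEFs numbered 15 without embryos 1 and 3 and 141 with no minimum size, against 73, and 64 to 75 with 1 unit left out. In ESCs there were 355 with no minimum size, against 221, and 213 to 230. In NPCs there were 20 without embryos 1 and 3 and 91 with profiles as units and no block, against 50, and 7 (without Cas129) to 79 (without the F121-6 ESCs). The change between MEFs and ESCs was called in 146 without embryos 1 and 3, against 250, and in 220 to 264. After median centring it was higher in MEFs in 135 and lower in 117, where the deposited scale gave 113 and 137. XEN minus feeder ESC calls ran from 412 to 466 around 448. The cause of these shifts was not tested. For the allelic counts, no share over all windows is given under these settings.

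With profiles as units and a replicate block, 80 members were called between alleles in MEFs, 219 in ESCs, 67 in NPCs, 279 for the change between MEFs and ESCs, and 462 for XEN minus feeder ESC timing. Profiles of like number share only a number: their deviations correlated at -0.40 to 0.30 in timing over 66 pairs. Of 720 refits of the 40 named allelic regions at their window of largest difference, 683 kept the call and 37 kept the direction without it. Of the latter, 5 were MEF regions without embryos 1 and 3, and the other 32 were NPC regions. Many of the refits could hardly change a call. With no minimum size a call cannot be lost, and a left-out line of another group enters only through the shared spread. The regions were also chosen for large differences in the same data, so these counts do not measure how firm the calls are. Read depth, which would set the error of a single window, is unknown.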
